A study of Homo sapiens with 8 samples.

Results

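Immediate early genes are switched on within minutes of a growth factor, cytokine or stress signal from factors already present in the cell, and their RNAs are short-lived. Kinases of the RAS-MAPK cascade activate ternary complex factors that act with SRF on a DNA element called the CArG box, and activate CREB-type factors on the cAMP response element (CRE). EGR1, EGR2 and EGR3 encode zinc-finger transcription factors, FOS, FOSB, JUN and JUNB encode the leucine-zipper subunits of AP-1, ATF3 encodes a stress-induced leucine-zipper factor, and IER2 and IER3 were named as genes of the same early wave. In myeloid cells, EGR1 and EGR2 are best known from monocyte and macrophage differentiation. These 10 genes were taken by symbol from the gene counts of 8 RNA-seq libraries of NB4 cells, a human acute promyelocytic leukemia (APL) line that carries the PML-RARA fusion. They are 10 of the 37526 gene names listed for all 8 libraries.

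The 8 libraries form 4 groups of 2. The shNC group held NB4 cells with the control lentivirus, which the labels name as the empty pLVX-shRNA2-puro vector and the study's methods as a scrambled shRNA. The shKDM3B group held cells stably expressing an shRNA against KDM3B, a histone demethylase, and the shNC_ATRA and shKDM3B_ATRA groups held the same cells given 1 µM all-trans retinoic acid (ATRA), the drug that drives APL cells toward granulocytes. The labels give 24 and 48 h of ATRA without naming the time of a library, and the study's methods give another ATRA concentration than the labels. The study used more than 1 shRNA sequence against KDM3B, and the one in these libraries was not named. Each group is thus a selected derivative of 1 cell line, and the labels do not say whether replicates were separate cultures, so the spread between replicates may be technical. The 10 genes were selected on their levels and knockdown and ATRA differences in these same libraries, so their values and fold changes are given as a description with standard errors (SE) and no p-value.

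Levels are counts per 1000000 read pairs on genes (CPM) on 1 common normalized scale, and 9708739 to 33017787 read pairs fell on genes per library. KDM3B was at 187 and 188 CPM in shNC, 76.3 and 86.1 in shKDM3B, 196 and 121 in shNC_ATRA, and 52.4 and 57.3 in shKDM3B_ATRA. It fell by 1.21 (SE 0.15) on the log2 scale without ATRA (adjusted p = 0.0680, edgeR quasi-likelihood test) and by 1.53 (SE 0.29) with ATRA (adjusted p = 0.502). The libraries were not technically alike. In shNC_ATRA replicate 2 and both shKDM3B_ATRA libraries, 50.0 to 51.4% of uniquely aligned read pairs lay outside annotated genes, against 8.49 to 9.62% in the other 5. For the ATRA response of shKDM3B cells this split and the treatment cannot be told apart, and the difference in ATRA response carries the same limit. Untreated libraries list 56470 gene names and ATRA libraries 56609, of which 37526 are shared. In every comparison of ATRA with untreated libraries, this difference in name lists and the treatment cannot be told apart. Of the myeloid markers, MPO stood at 616 to 9512 CPM and CD33 at 62.9 to 110 CPM, whereas ELANE, PRTN3 and AZU1 stayed below 1.5 CPM in all 8 libraries. Of the markers of other lineages, EPCAM stood at 13.0 to 18.9 CPM and CD79A at 1.28 to 16.4 CPM, with MS4A1, HBB and HBA1 at 0. CD79A differed by group, at 3.21 and 3.06 CPM in shNC and 1.28 and 2.33 in shKDM3B. With ATRA it was at 16.4 and 16.1 CPM in shNC_ATRA and 6.95 and 8.24 in shKDM3B_ATRA.

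Promoter windows of 250 bases before the start of transcription were read from RefSeq (GRCh38.p14) for 8 of the 10 genes, in 11 windows. Those of EGR1, EGR2, JUN and JUNB are shown because these genes passed the threshold used below in at least 1 comparison and hold different sets of early-response elements. Capitals mark the CArG box, the CRE half-site TGACG on either strand, and the letters TATAAA of the TATA box.
EGR1, chr5:138465229-138465478, plus strand: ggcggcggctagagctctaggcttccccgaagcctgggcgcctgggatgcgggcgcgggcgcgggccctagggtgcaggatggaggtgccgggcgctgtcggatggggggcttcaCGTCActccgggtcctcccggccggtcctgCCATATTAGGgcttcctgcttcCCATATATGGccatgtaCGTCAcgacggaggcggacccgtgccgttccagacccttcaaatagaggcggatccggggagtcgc
EGR2, chr10:62816367-62816616, minus strand: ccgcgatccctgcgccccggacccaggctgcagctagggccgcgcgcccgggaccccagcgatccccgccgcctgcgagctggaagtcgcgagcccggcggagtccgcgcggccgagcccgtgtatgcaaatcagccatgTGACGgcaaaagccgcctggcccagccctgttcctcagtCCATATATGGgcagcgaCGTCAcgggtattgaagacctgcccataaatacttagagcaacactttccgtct
JUN, chr1:58784048-58784297, minus strand: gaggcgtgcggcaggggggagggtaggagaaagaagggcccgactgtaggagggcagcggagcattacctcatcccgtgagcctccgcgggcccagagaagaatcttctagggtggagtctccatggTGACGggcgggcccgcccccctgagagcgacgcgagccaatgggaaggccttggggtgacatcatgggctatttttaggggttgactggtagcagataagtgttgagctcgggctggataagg
JUNB, chr19:12791236-12791485, plus strand: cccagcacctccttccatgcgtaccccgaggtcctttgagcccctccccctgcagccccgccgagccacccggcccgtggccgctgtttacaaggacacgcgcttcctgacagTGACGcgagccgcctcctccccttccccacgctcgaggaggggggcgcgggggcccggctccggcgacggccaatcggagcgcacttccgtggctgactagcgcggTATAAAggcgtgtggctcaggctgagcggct
The EGR1 window held 2 CArG boxes, at bases -105 to -96 and -83 to -74 from the start, and the EGR2 window shown 1, at -71 to -62. The other EGR2 windows, not shown, held none of the marked elements. No other window of these genes held a CArG box, and bases beyond 250 before the start were not searched. The CArG box was found in 1.16% of 35116 promoter windows of the same length. A CRE half-site was present for 7 of the 8 genes (all but ATF3) and in 7 of the 11 windows, against 21.2% of all windows. JUN had 1 CRE half-site, at -123 to -119, and neither of the other marked elements. JUNB had 1 CRE half-site, at -137 to -133, and a TATA box at -31 to -26. The AP-1 site TGANTCA was in none of the 11 windows and in 6.57% of all, and the EGR site GCGNGGGCG was in the EGR1 window and in 8.41% of all. Both strands were searched, 1 stretch may match more than 1 motif, and a gene may have several windows, so these counts are not a test.

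Per kilobase of exon, JUNB and IER2 were the most abundant of the 10 genes in every group. In shNC cells JUNB stood at 33.9 ± 0.82 CPM per kb and IER2 at 22.2 ± 0.96 (mean ± SD, n = 2). JUN followed at 2.39 ± 0.28 CPM per kb, then FOS at 1.40 ± 1.00, ATF3 at 0.904 ± 0.11, EGR1 at 0.728 ± 0.24, FOSB at 0.213 ± 0.056, EGR2 at 0.120 ± 0.15 and EGR3 at 0.0416 ± 0.012. The libraries of FOS overlapped those of ATF3, ATF3 those of EGR1, FOSB those of EGR2, and EGR2 those of EGR3, so these neighbours were not separated by their spread. In shKDM3B cells EGR1 stood at 2.55 ± 0.72 CPM per kb, and its libraries overlapped those of JUN (2.59 ± 0.16) and FOS (2.37 ± 1.23). In shNC_ATRA cells EGR3 reached 1.68 ± 0.11 CPM per kb, within the range of EGR1 (1.81 ± 0.76), and JUN stood below both at 0.952 ± 0.16. In shKDM3B_ATRA cells JUNB was at 12.9 ± 1.28 and IER2 at 9.24 ± 1.46 CPM per kb.

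**Figure D1:**
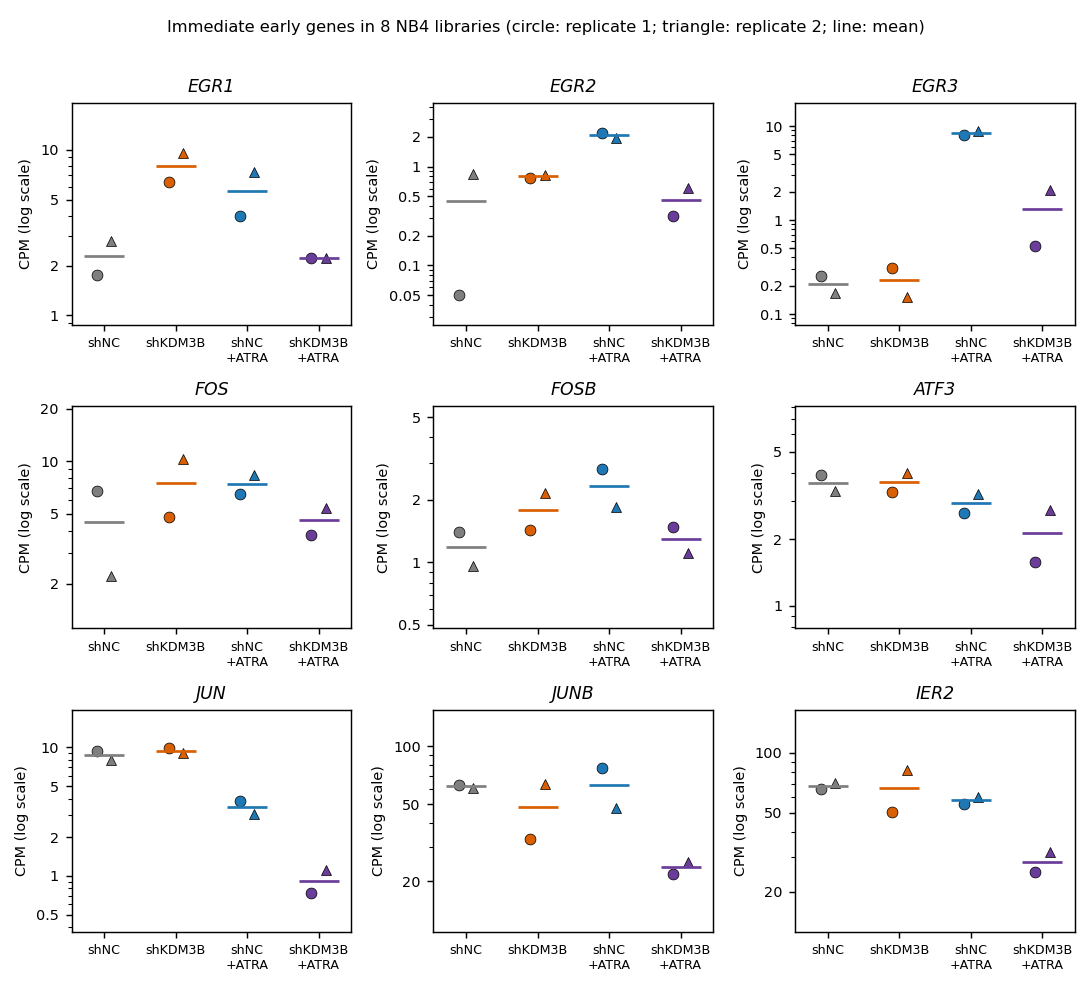
CPM (log scale, a different range for each gene) of 9 immediate early genes in the 8 libraries; circles are replicate 1, triangles replicate 2 and lines group means, and IER3, at 0 throughout, is left out. EGR1 had its highest mean in shKDM3B (6.42 and 9.60 CPM), which overlapped shNC_ATRA (3.98 and 7.37 CPM). EGR3 stood apart in shNC_ATRA (8.09 and 8.85 CPM), and JUN was lowest in shKDM3B_ATRA (0.737 and 1.10 CPM).

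EGR1 (chr5:138465479-138469303, plus strand; GENCODE, hg38) lies near KDM3B, with 28450 bases and 3 annotated genes, 1 of them protein coding, between the end of KDM3B and its start. Its level was 1.76 and 2.81 CPM in shNC, 6.42 and 9.60 in shKDM3B, 3.98 and 7.37 in shNC_ATRA, and 2.21 in both shKDM3B_ATRA libraries. Either knockdown or ATRA alone went with a higher level and the combination did not: both shKDM3B and both shNC_ATRA libraries lay above shNC, while the shKDM3B_ATRA libraries lay within the shNC range. The log2 difference of shKDM3B from shNC was 1.81 (SE 0.35), and leaving out any single library gave 1.47 to 2.20. With ATRA the difference was -1.35 (SE 0.45). The ATRA difference was 1.34 (SE 0.48) in shNC cells and -1.81 (SE 0.32) in shKDM3B cells, which left -3.16 (SE 0.61) between the responses. Without shNC_ATRA replicate 2 the knockdown difference with ATRA was -0.85 and the ATRA difference in shNC cells 0.80, and the second was then not called. In RNA from whole cultures, fewer cells that express a gene and less RNA per cell cannot be told apart, here and for the genes that follow.

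EGR2 (chr10:62811996-62819167, minus strand) was counted at 1 and 20 read pairs in shNC, 15 and 27 in shKDM3B, 36 and 21 in shNC_ATRA, and 3 and 6 in shKDM3B_ATRA. As CPM these were 0.0502 and 0.839, 0.770 and 0.828, 2.21 and 1.94, and 0.316 and 0.603. Only the shNC_ATRA libraries lay above all the others. The shNC replicates differed 16.7-fold, with a 95% counting interval of 2.67 to 693 that covers counting error only. The log2 difference of shKDM3B_ATRA from shNC_ATRA was -2.14 (SE 0.57), and that of shNC_ATRA from shNC was 2.20 (SE 0.89), with 1.30 without shNC replicate 1 and 5.18 without shNC replicate 2 as the extremes of leaving out 1 library. Without ATRA the knockdown difference was 0.79 (SE 0.81), and its sign rested on the shNC replicate with 1 read pair.

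EGR3 (chr8:22687659-22693480, minus strand) had the widest range of the 10 genes as a ratio of its highest to its lowest CPM. Its read pairs numbered 5 and 4 in shNC, 6 and 5 in shKDM3B, 132 and 96 in shNC_ATRA, and 5 and 21 in shKDM3B_ATRA, or 0.251 and 0.168, 0.308 and 0.153, 8.09 and 8.85, and 0.526 and 2.11 CPM. ATRA thus went with a level 40.5-fold higher in shNC cells, a log2 difference of 5.34 (SE 0.48). The shKDM3B_ATRA libraries lay above both untreated groups and below shNC_ATRA, at a log2 difference of -2.67 (SE 0.78) from shNC_ATRA that ran from -3.97 to -1.99 when single libraries were dropped. Too few read pairs were counted for a fit of shKDM3B_ATRA against shKDM3B; the ratio of summed counts per depth was 6.33 (95% counting interval 3.02 to 14.2). The shKDM3B_ATRA replicates themselves differed 4.01-fold (1.47 to 13.6). The difference between the ATRA responses was -2.76 (SE 1.00), and it ran from -4.09 without shKDM3B_ATRA replicate 2 to -2.07 without shKDM3B_ATRA replicate 1.

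The makeup of the EGR family differed between the untreated and the shNC_ATRA libraries. Per kilobase of exon, EGR3 made up 2.88 to 8.0% of the summed EGR1, EGR2 and EGR3 level in shNC, 0.919 to 2.64% in shKDM3B, 46.3 and 38.0% in the 2 shNC_ATRA libraries, and 11.7 and 32.6% in shKDM3B_ATRA. EGR1 made up 77.5 to 92.3% in the untreated libraries and 36.6 and 50.8% in shNC_ATRA. In shKDM3B_ATRA its share was 78.8 and 54.8%, the first within the untreated range. The summed level was 0.623 and 1.16 CPM per kb in shNC, 2.32 and 3.31 in shKDM3B, 3.47 and 4.63 in shNC_ATRA, and 0.894 and 1.29 in shKDM3B_ATRA.

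**Figure D2:**
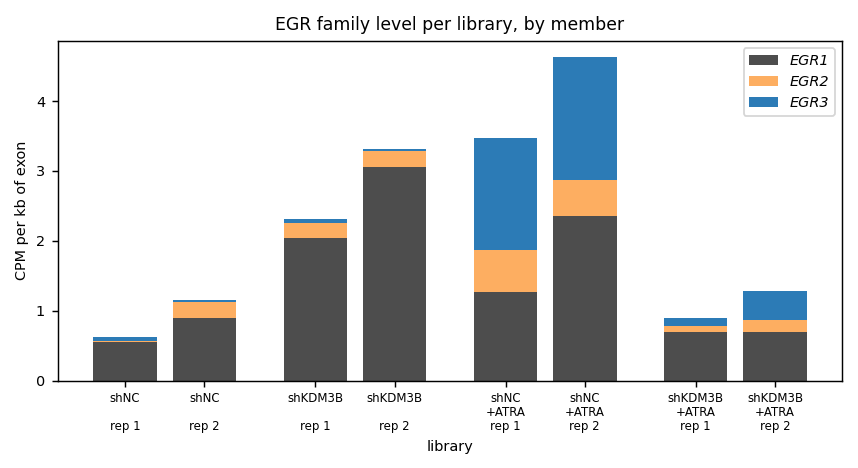
Stacked level of EGR1, EGR2 and EGR3 (CPM per kb of exon, linear axis from 0) in each of the 8 libraries. The untreated columns are mostly EGR1, the shNC_ATRA columns hold EGR3 at 46.3 and 38.0%, and the shKDM3B_ATRA columns reach 0.894 and 1.29 CPM per kb.

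FOS (chr14:75278826-75282230, plus strand), the partner that needs a JUN protein to bind DNA, stood at 6.72 and 2.22 CPM in shNC, 4.78 and 10.3 in shKDM3B, 6.49 and 8.39 in shNC_ATRA, and 3.79 and 5.42 in shKDM3B_ATRA. Its replicates differed by more than counting error in both untreated groups, with ratios of replicate 2 to replicate 1 of 0.331 (0.236 to 0.458) and 2.16 (1.71 to 2.74). The untreated groups overlapped, with a log2 difference of 0.77 (SE 0.53) that ran from 0.09 without shKDM3B replicate 2 to 1.77 without shNC replicate 1, whereas both shKDM3B_ATRA libraries lay below both shNC_ATRA libraries, at -0.68 (SE 0.35). FOSB (chr19:45467995-45475179, plus strand), its paralog, was at 1.40 and 0.965 CPM in shNC, 1.44 and 2.15 in shKDM3B, 2.82 and 1.84 in shNC_ATRA, and 1.47 and 1.10 in shKDM3B_ATRA. The knockdown libraries of FOSB lay above the control without ATRA (log2 difference 0.62, SE 0.41) and below it with ATRA (-0.85, SE 0.47). Dropping single libraries gave 0.27 to 0.91 without ATRA and -1.12 to -0.50 with ATRA. Neither gene passed the threshold of P under 0.05 and a fold change of at least 1.5 in any of the 4 comparisons between groups.

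JUN (chr1:58776845-58784048, minus strand), the founding AP-1 subunit, was lower with ATRA in both cell types. Its level was 9.38 and 7.93 CPM in shNC, 9.81 and 8.98 in shKDM3B, 3.86 and 3.04 in shNC_ATRA, and 0.737 and 1.10 in shKDM3B_ATRA. The untreated groups overlapped (log2 difference 0.12, SE 0.23), and both ATRA groups lay below them without overlap. With ATRA the level was 2.44-fold lower in shNC cells (log2 difference -1.29, SE 0.36) and 9.73-fold lower in shKDM3B cells (-3.28, SE 0.34). The knockdown difference with ATRA was -1.89 (SE 0.45), and the ATRA responses differed by -2.02 (SE 0.45).

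JUNB (chr19:12791486-12793315, plus strand), an AP-1 subunit known as a weaker activator than JUN, stood at 63.2 and 61.1 CPM in shNC, 32.97 and 64.1 in shKDM3B, 77.4 and 48.0 in shNC_ATRA, and 21.9 and 25.2 in shKDM3B_ATRA. The shKDM3B and shNC_ATRA replicates differed by more than counting error, with ratios of 1.95 (1.78 to 2.13) and 0.620 (0.559 to 0.687). All 6 other libraries lay above both shKDM3B_ATRA libraries. The knockdown difference was -0.35 (SE 0.28) without ATRA, with 0.05 without shKDM3B replicate 1 and -0.93 without shKDM3B replicate 2, where it was called lower, and it was -1.41 (SE 0.30) with ATRA, and the ATRA difference was 0.05 (SE 0.27) in shNC cells and -0.996 (SE 0.28) in shKDM3B cells. Without shKDM3B replicate 2 the last value was -0.43 and was not called. IER2 (chr19:13150411-13154911, plus strand) was likewise lowest in shKDM3B_ATRA, at 66.2 and 70.4 CPM in shNC, 50.4 and 82.4 in shKDM3B, 55.3 and 60.4 in shNC_ATRA, and 25.3 and 31.6 in shKDM3B_ATRA. Its knockdown difference was -0.04 (SE 0.23) without ATRA and -1.02 (SE 0.18) with ATRA. The first was -0.45 without shKDM3B replicate 2 and 0.27 without shKDM3B replicate 1. Transcripts running the other way cover 52.2% of the IER2 exons and 14.2% of the JUNB exons. The strand setting of the counting was not given in the sources used here, and reads of such partners cannot be told apart without it.

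ATF3 (chr1:212565334-212620777, plus strand) had the narrowest range as a ratio of CPM among the 9 genes with reads, at 3.91 and 3.31 CPM in shNC, 3.29 and 4.02 in shKDM3B, 2.63 and 3.23 in shNC_ATRA, and 1.58 and 2.71 in shKDM3B_ATRA. The knockdown difference was 0.02 (SE 0.30) without ATRA and -0.44 (SE 0.45) with ATRA, and the libraries overlapped in both. Dropping single libraries gave -0.15 to 0.15 without ATRA and -0.88 to -0.10 with ATRA. IER3 (chr6:30743199-30744548, minus strand) was listed at 0 in all 8 libraries. Of the 31 other protein-coding names within 500 kb of it, 26 (83.9%) had under 100 read pairs over all libraries, against 41.8% of the 18440 elsewhere, so the 0 is a listing and gives no level.

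**Figure D3:**
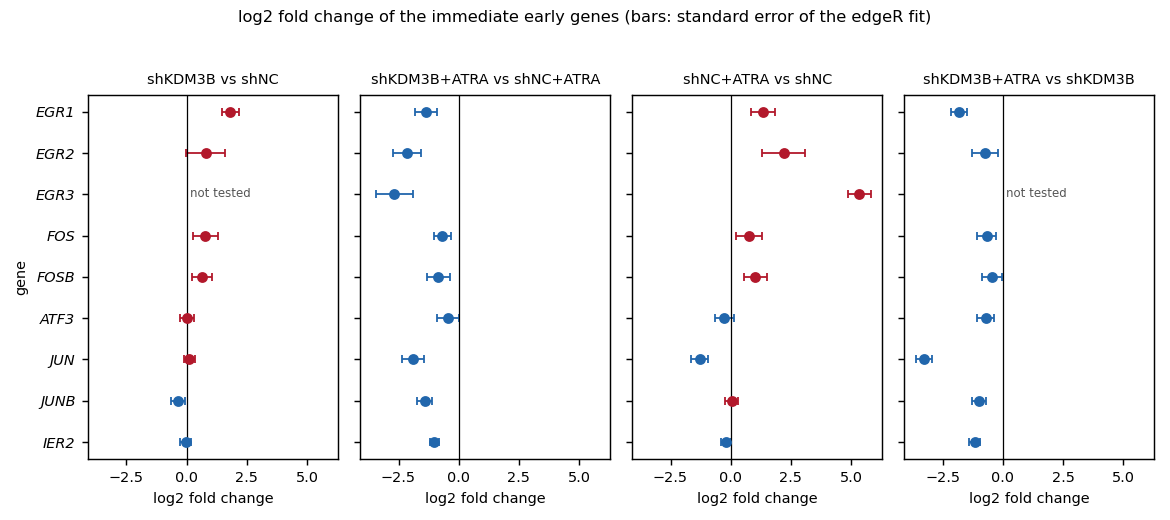
log2 fold change (points) and its SE (bars) of 9 genes in the 4 comparisons between groups, red above 0 and blue below; genes with too few reads for a fit are marked as not tested. With ATRA all 9 points of the knockdown lie below 0, from -0.44 for ATF3 to -2.67 for EGR3, whereas without ATRA they run from -0.35 for JUNB to 1.81 for EGR1.

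Across the set, the knockdown differences were of mixed sign without ATRA and all below 0 with ATRA. The genes were chosen with these contrasts known, and nothing is read from the counts that follow. Without ATRA 8 genes had enough reads to be fitted, and 1 of them (EGR1) was called higher at P under 0.05 and a fold of at least 1.5, against 3.48% of all 13855 genes tested. None was called lower, against 3.53% of all. The shKDM3B libraries lay wholly above shNC for 2 genes (EGR1 and FOSB), against 21.2% of all genes compared, and wholly below for 0, against 19.6%. Their median log2 difference was 0.37, with 0.00022 over all genes. With ATRA 9 genes were fitted, and 6 (EGR1, EGR2, EGR3, JUN, JUNB and IER2) were called lower, against 4.37% of all 14281 genes, and none higher, against 2.42%. DESeq2 called 4 of them lower, without EGR1 and EGR2, and the fit over all 8 libraries called 5, without EGR2. EGR2, EGR3 and JUN were fitted here only because of their reads in shNC_ATRA, where they were higher. A call for them could only be lower. All 9 differences were below 0, as were 46.9% of those of all genes, and the median was -1.35 against 0.03. In 8 of the 9, all but ATF3, both shKDM3B_ATRA libraries lay below both shNC_ATRA libraries, as in 26.0% of all genes compared. The interaction fit gave 9 differences in ATRA response below 0 (52.4% of all genes), with 4 (EGR1, EGR3, JUN and IER2) at P under 0.05 and lower, against 3.07% of 13528 genes, and none higher, against 1.42% (4.49% in either direction). EGR1, EGR2, EGR3 and JUN were the members called for ATRA in shNC cells, 3 higher and 1 lower, against 15.0% and 10.8% of 12429 genes (25.9% in either direction). DESeq2 and the fit over all 8 libraries each called 3, without EGR2. In this comparison EGR2 and EGR3 were fitted only because of their reads in shNC_ATRA, so a call for them could only be higher. The ATRA libraries lay wholly above shNC for 4 members and wholly below for 3, against 27.2% and 30.2% of genes, and 3 of 9 differences were below 0, against 48.7%. For ATRA in shKDM3B cells 4 of 8 (EGR1, JUN, JUNB and IER2) were called lower, against 18.3% of 12756 genes, and none higher, against 24.0% (42.2% in either direction). The ATRA libraries lay wholly below shKDM3B for 6 members and wholly above for 1 (EGR3), against 38.7% and 38.0% of genes, and all 8 differences were below 0, against 47.5%. EGR3 was not among these 8, because too few reads were counted for a fit. At an adjusted p under 0.05 with the same fold, 3 genes of all (0.0217%) were called for the knockdown without ATRA and 0 with ATRA, against 971 (7.01%) and 969 (6.79%) at the unadjusted threshold. For ATRA the adjusted threshold called 12.9% of genes in shNC cells and 40.2% in shKDM3B cells.

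Markers of the ATRA response also differed between the 2 ATRA groups. All 4 (ITGAM, CYP26A1, DHRS3 and TGM2) were lower in both shKDM3B_ATRA libraries than in both shNC_ATRA libraries. Their sum, mostly ITGAM without ATRA and mostly TGM2 with ATRA, was 23.0 to 28.5 CPM in shNC, 13.8 to 19.4 in shKDM3B, 5466 to 6204 in shNC_ATRA and 2450 to 2757 in shKDM3B_ATRA. ITGAM stood at 216 and 154 CPM in shNC_ATRA and 104 and 106 in shKDM3B_ATRA, and DHRS3 at 144 and 164 and then 78.5 and 108 CPM. CYP26A1, the enzyme that clears retinoic acid, was at 9.98 and 8.66 and then 0.421 and 2.11 CPM. The 10 myeloid markers did not move together: MPO was at 729 and 616 CPM in shNC_ATRA and 3126 and 2219 in shKDM3B_ATRA, and carried the list's sum from 1462 to 1873 up to 2987 to 3823 CPM, whereas SPI1 went from 495 and 304 to 224 and 259 CPM and CEBPE from 427 and 335 to 259 and 286 CPM. Without ATRA, MPO was at 4282 and 5340 CPM in shNC and 8335 and 9512 in shKDM3B. ITGAM was lower in shKDM3B (9.86 and 14.9 CPM) than in shNC (20.5 and 26.0), and DHRS3 higher (3.59 and 4.17 against 2.41 and 2.14). The part of these markers in the differences of the immediate early genes was not tested.

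The differences were also read within 1 side of the split in reads outside genes. Without shNC_ATRA replicate 1, the 3 ATRA libraries left share the high proportion, and the knockdown differences were -1.72 (SE 0.39) for EGR1, -2.03 (SE 0.81) for EGR2, -2.71 (SE 0.41) for EGR3, -1.69 (SE 0.59) for JUN, -1.02 (SE 0.17) for JUNB and -1.07 (SE 0.16) for IER2. The other 3 genes were also below 0, from -0.50 (SE 0.64) for FOSB to -0.85 (SE 0.32) for FOS. Without shNC_ATRA replicate 2, all 3 libraries of the ATRA comparison in shNC cells share the low proportion, and EGR3 differed by 5.26 (SE 0.60), EGR2 by 2.25 (SE 0.77), JUN by -1.16 (SE 0.42) and EGR1 by 0.80 (SE 0.51). The single library of a group is assumed in these fits to vary like the others. The difference in ATRA response could not be read this way, because both shKDM3B libraries have the low proportion and both shKDM3B_ATRA libraries the high one. The number of members called in the knockdown with ATRA depended on the library left out, and all were lower. It was 7 without shNC_ATRA replicate 1, where 1291 of all genes were called higher and 1205 lower, and 7 without shNC_ATRA replicate 2, where 3409 were called higher and 1951 lower, against 345 and 624 with all 4 libraries. It was 2 without shKDM3B_ATRA replicate 2 (284 genes in all) and 1 without shKDM3B_ATRA replicate 1 (134 genes).

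The other genes of the pathway were counted in 5 lists of 96 genes, of which 83 were tested in the knockdown with ATRA. There 13 fell and 2 rose at the same threshold, where 4.37% of all genes were called lower and 2.42% higher. Of the 83, 55 were below 0, against 46.9% of all genes, and the median was -0.24, against 0.03. No gene of the lists had an adjusted p under 0.05, and the smallest was 0.502 (edgeR). Of the 15 other AP-1 and related leucine-zipper genes tested, 6 fell, among them BATF, FOSL2, JDP2, JUND and MAFK, and 0 rose. JUND, the AP-1 subunit held to be constitutive, was at 68.2 and 41.8 CPM in shNC_ATRA and 16.1 and 17.8 in shKDM3B_ATRA, a fall of 1.70 (SE 0.31) on the log2 scale. FOSL2, a FOS relative, went from 25.4 and 22.2 to 7.68 and 10.6 CPM. Of the 26 other immediate early genes, 5 fell (CSRNP1, GADD45A, IER5, NR4A1 and PLK3) and 0 rose. NR4A1, an orphan nuclear receptor, fell by 2.32 (SE 0.40), from 4.10 and 5.81 to 0.947 and 1.0 CPM. NAB2, a corepressor of EGR proteins that is itself induced by them, was at 7.41 and 8.30 and then 3.37 and 4.02 CPM, a fall of 1.08 (SE 0.30). Among 26 upstream kinases and factors, ELK4, a ternary complex factor, rose by 0.78 (SE 0.12) and 0 fell. Of 14 textbook targets, 12 were below 0, with a median of -0.50, and 1 passed the threshold in each direction. CDKN1A, the cell-cycle inhibitor p21, fell by 2.59 (SE 0.38), from 6.92 and 7.37 to 0.947 and 1.41 CPM, and CCND1, a G1 cyclin, rose by 0.60 (SE 0.12). Without shNC_ATRA replicate 1, 7 of the AP-1 list, 11 of the immediate early list and 7 of the textbook targets fell and 1 of each rose, with 8.19% of all genes lower and 8.78% higher.

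Without ATRA, 3 of the 85 list genes tested rose with the knockdown and 10 fell, where 3.48% of all genes were called higher and 3.53% lower, with a median of -0.01. BATF fell by 1.26 (SE 0.28; adjusted p = 0.152, edgeR) and JUND by 0.59 (SE 0.26; adjusted p = 0.488), and no gene of the AP-1 list rose. The JUND difference ran from -0.96 to -0.31 when single libraries were dropped, the latter under a fold of 1.5. Among the immediate early genes KLF2 rose, and HES1 and KLF6 fell. HRAS, the small GTPase at the head of the cascade, rose from 2.01 and 3.61 to 12.2 and 10.5 CPM, a difference of 2.01 (SE 0.32; adjusted p = 0.105, edgeR). Of 15 textbook targets, CXCL8, the neutrophil chemoattractant, rose by 1.52 (SE 0.23; adjusted p = 0.105), and 6 fell (F3, IL1B, MMP9, PLAU, SPP1 and TIMP1). MMP9, a gelatinase, stood at 52.2 and 50.6 CPM in shNC and 17.8 and 25.6 in shKDM3B, with 18.4% of its exon length under transcripts of the other strand.

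ATRA moved the lists in both directions in shNC cells, where 31 of 88 genes rose and 12 fell and 15.0% of all genes were called higher and 10.8% lower. With library size alone as the scaling, 1617 of all genes were called higher and 1688 lower, against 1866 and 1347. In the AP-1 list 3 of 16 rose and 1 fell. BATF2 went from 0.251 and 0.294 to 28.3 and 30.4 CPM (log2 difference 6.74, SE 0.37; adjusted p = 1.35e-04, edgeR). In the immediate early list 15 of 29 rose and 7 fell. The antiproliferative gene BTG2 rose by 3.03 (SE 0.39; adjusted p = 0.00313) and the cytokine-signaling inhibitor SOCS3 by 3.07 (SE 0.49; adjusted p = 0.00768), whereas KLF4, a zinc-finger factor of monocyte differentiation, fell from 5.72 and 6.71 to 0.245 and 0.369 CPM (adjusted p = 0.00202, edgeR). NAB2 fell by 1.45 (SE 0.33; adjusted p = 0.0300) in the same comparison. Upstream, ELK3 rose by 1.85 (SE 0.22; adjusted p = 0.00233), and 10 of 15 textbook targets rose and 3 fell, among them CDKN1A (3.61 higher) and MMP9 (fell by 4.80). In shKDM3B cells 24 of 86 rose and 20 fell, where 24.0% of all genes were called higher and 18.3% lower. There BATF2 rose by 5.37 (SE 0.30) and FOSL2 fell by 1.80 (SE 0.20), both in the comparison that cannot be told apart from the split in reads outside genes.

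**Figure D4:**
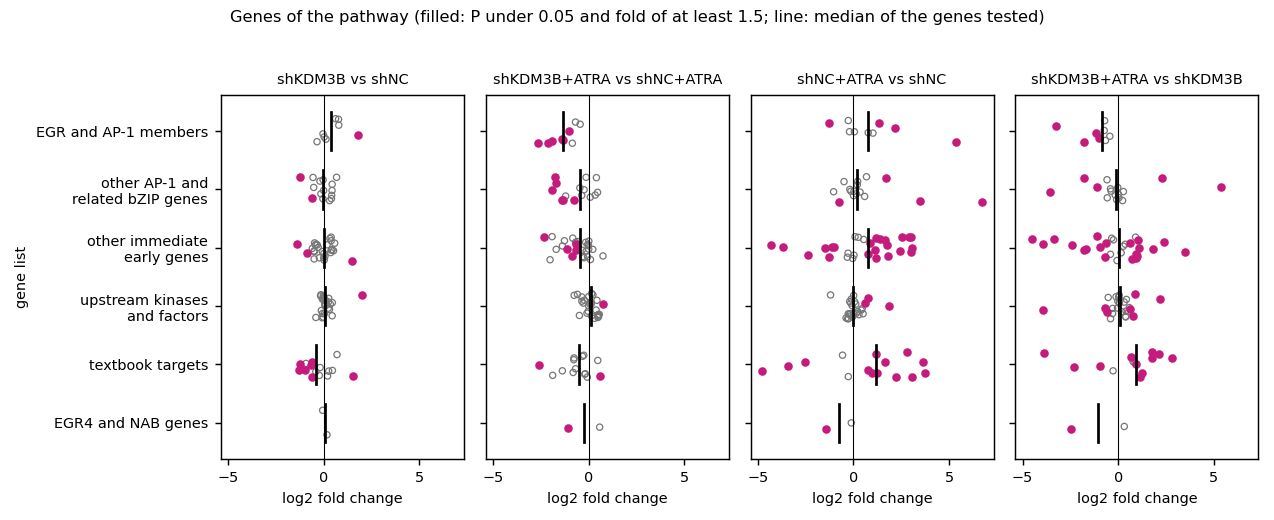
log2 fold change of each gene tested, by list (rows) and comparison (panels, 1 common axis); filled points passed P under 0.05 and a fold of at least 1.5, and black lines are list medians. With ATRA the knockdown medians of the other AP-1 genes and the other immediate early genes both lie at -0.46, that of the textbook targets at -0.50, that of the EGR4 and NAB genes at -0.25 and that of the upstream kinases and factors at 0.13.

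The genes whose profile over the 8 libraries was most like that of EGR1, by Pearson correlation of log2 CPM among 9756 genes, were C3AR1 (0.916), DLG4 (0.899), GPR84 (0.897), FDPS (0.885) and FAM162A (0.876). For FOS the closest were UNKL (0.836), RHBDD3 (0.812), YTHDC1 (0.778), WDR20 (0.771) and SLC22A31 (0.751). JUNB had closer neighbours, DCPS (0.991), NDUFB10 (0.990), ARF1 (0.987), PDLIM7 (0.981) and C12orf10 (0.976). These values describe 8 libraries that come in groups and differ in depth. C3AR1 and DLG4 stayed among the 5 closest to EGR1 by rank correlation, as did RHBDD3 and WDR20 for FOS and DCPS, NDUFB10 and PDLIM7 for JUNB.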

How the data were processed

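RNA libraries were prepared with a TruSeq RNA kit. The deposited files held whole-number counts of read pairs per gene name, which the authors made by trimming, alignment with HISAT2 to hg38 and counting with HTSeq; the versions and strand setting were not given in the sources used here. Untreated and ATRA libraries list 56470 and 56609 names, and 37526 are shared. Summary lines that name no gene were left out. Here, each pair of groups was fitted with edgeR 4.0.16 in R 4.3.3 (filterByExpr, TMM, quasi-likelihood test; P under 0.05 and fold of at least 1.5; Benjamini-Hochberg adjustment over all genes), and the difference in ATRA response with an interaction term over 8 libraries. Fold changes are log2. The study used the same threshold with DESeq2. CPM per kb used GENCODE 44 exon lengths, in which overlapping exons were merged. Counting intervals are exact at 95%. Alternatives were DESeq2 1.42.0, other size factors and filters, a replicate block, an 8-library fit and leaving out each library. On simulated counts, 97% of 3-fold changes were called for the knockdown without ATRA and 64.2% with ATRA. Genes left unchanged there were called at 2.68% without ATRA, 4.21% with ATRA and 4.63% for the difference in ATRA response. In the data, 7.01%, 6.79% and 4.49% of all genes were called in these comparisons, in either direction. The members and gene lists were chosen with earlier results of these data known. Named list genes are up to 4 called per list and comparison with the largest fold change and a mean of at least 1 CPM in a group, and the 5 genes most like EGR1, FOS and JUNB at a mean of at least 5 CPM; JDP2, MAFK, IER5, KLF2, PLAU and TIMP1 were named to complete small counts. Some genes of the lists and markers are not reported here.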

Additional observations from a re-analysis of the deposited data

Results flagged for a closer look

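EGR1 moved in opposite directions with the knockdown without and with ATRA: both shKDM3B libraries lay above both shNC libraries, and both shKDM3B_ATRA libraries below both shNC_ATRA libraries, so the log2 differences of 1.81 and -1.35 stood -3.16 (SE 0.61) apart. The same value, -3.16, separates its ATRA response in shNC cells (1.34) from that in shKDM3B cells (-1.81). The ATRA response of EGR2 was likewise opposite in the groups, by -2.96 (SE 1.36), on 1 to 36 read pairs per library; it ran from -5.97 without shNC replicate 2 to -2.09 without shNC replicate 1, and did not pass the threshold. FOSB was higher with the knockdown without ATRA and lower with it, a difference of -1.46 (SE 0.65). It was called in neither knockdown comparison nor for the difference. Without ATRA its nearest libraries, replicate 1 of shNC and of shKDM3B, each held 28 read pairs, at 1.40 and 1.44 CPM. Each was noted because every library of one pair of groups moved the opposite way to the other pair. The differences come from the interaction fit and are given without a p-value, because the genes were chosen with these values known. They include the ATRA response of shKDM3B cells, which cannot be told apart from the split in reads outside genes. That the directions differ was not tested on other samples.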

How the results depend on the processing

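No called value changed sign under the alternatives run. Of the values for single genes 1030 stayed on their side of the threshold, 78 lost their call and 44 moved. At an adjusted p under 0.05, the genes called numbered 3 for the knockdown without ATRA, 0 with ATRA, 1604 for ATRA in shNC cells and 0 for the difference in ATRA response, with 0, 0, 1 and 0 members. With no low-count filter, the members called were 2 for the knockdown without ATRA (1402 genes in all), 7 for ATRA in shKDM3B cells (6532) and 7 for the difference (956). Whether libraries with the same replicate number were paired is not given in the sources used here. With the replicate block, 525 genes and 3 members were called for the knockdown with ATRA (main 969 and 6). Without ATRA it called 1242 genes and 2 members (main 971 and 1). The deviations of same-numbered libraries correlated at 0.39 for shNC and shKDM3B and at 0.03 for the ATRA groups. They correlated at 0.18 for shKDM3B and shKDM3B_ATRA and at -0.07 for shNC and shNC_ATRA. Leaving out 1 library gave 943 to 1650 genes and 2 members for the knockdown without ATRA, 134 to 5360 genes and 1 to 7 members with ATRA, 1462 to 5142 genes and 2 to 5 members for ATRA in shNC cells, 4953 to 5866 genes and 4 to 7 members in shKDM3B cells, and 288 to 2751 genes and 3 to 7 members for the difference. The extremes with ATRA were 134 genes without shKDM3B_ATRA replicate 1 and 5360 without shNC_ATRA replicate 2; the cause was not tested. The interaction calls split into 192 higher and 415 lower with TMM, 222 and 377 with DESeq2 size factors, and 260 and 318 with library size alone. Depth limits EGR2 and EGR3, with 1 to 36 and 4 to 132 read pairs per library.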
